A study of Mus musculus with 6 samples.

Results

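Intercalated cells are the acid-base cells of the connecting tubule and collecting duct. Type A cells secrete acid into the urine through a vacuolar proton pump, the V-ATPase, and return bicarbonate to the blood, whereas type B cells secrete bicarbonate into the urine. The 10 genes described here carry these functions. They are 4 V-ATPase subunits enriched in these cells (Atp6v1g3, Atp6v0d2, Atp6v1b1, Atp6v0a4), 3 anion exchangers (Slc4a1, Slc4a9, Slc26a4), the ammonia transport proteins Rhbg and Rhcg, and the transcription factor Foxi1, which is needed for intercalated cells to form. They were chosen by gene symbol, and all 10 were found among the 24422 genes counted.

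RNA sequencing was performed on whole kidney of C57BL/6 mice at postnatal day 60, with 3 control libraries (wild type) and 3 libraries labelled TfR1KO;KspCre (genotype Tfr1f/f;KspCre), called knockouts below. All mice had an iron-sufficient diet of 220 ppm. In the knockouts the floxed exons of the transferrin receptor gene Tfrc are removed by a Cre recombinase under the Ksp-cadherin promoter, which acts in tubule epithelium of the distal nephron and not in the whole kidney. The comparison asks which transcripts differ once these segments lose transferrin-bound iron uptake. In whole tissue, fewer cells of a type and less RNA per cell cannot be told apart. Values are counts per 1000000 counts (CPM) after TMM scaling, and log2 fold changes are knockout over control.

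Total counts ranged from 11501053 (knockout 3) to 21001341 (control 1). The knockouts did not form a tight group, since knockout 1 lay at 9.67 on the first principal component, between the controls (-72.6 to -53.2) and knockouts 2 and 3 (88.6 and 82.1). Control 2 differed from the other 5 libraries in sex-linked transcripts, with 3.06 CPM of Xist against 760 to 1431 CPM. Tfrc itself was at 138, 168 and 62.0 CPM in controls and 214, 86.0 and 40.6 CPM in knockouts, so it did not check the labels. Of 15171 genes tested, 17.2% were called (Benjamini-Hochberg adjusted p under 0.05 in the quasi-likelihood test of edgeR). With any 1 control left out 0 were called (edgeR), although 4270 to 4823 genes had an unadjusted p under 0.05. Results below are therefore given with and without single libraries where a library decides them.

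For 6 of the 10 genes a promoter window of 300 bases (250 before and 50 after the start) was found in RefSeq (GRCm38.p6). Of these, 4 are shown because Atp6v1b1 and Foxi1 were highest in knockout 3, whereas Atp6v0a4 and Rhcg were low in knockouts 2 and 3. Capitals mark the forkhead words TGTTTAC and TGTTTGC on either strand, the kind of sequence that Foxi1-type factors bind. All 4 run 5′ to 3′ on the strand of the gene.
Atp6v1b1 (chr6:83742767-83743066, plus strand): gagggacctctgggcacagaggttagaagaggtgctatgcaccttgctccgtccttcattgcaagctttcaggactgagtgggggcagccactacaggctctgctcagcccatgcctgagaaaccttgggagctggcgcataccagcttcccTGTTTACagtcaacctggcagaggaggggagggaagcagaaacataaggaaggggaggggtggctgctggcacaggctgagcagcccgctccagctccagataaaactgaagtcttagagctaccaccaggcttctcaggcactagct
Foxi1 (chr11:34208040-34208339, minus strand): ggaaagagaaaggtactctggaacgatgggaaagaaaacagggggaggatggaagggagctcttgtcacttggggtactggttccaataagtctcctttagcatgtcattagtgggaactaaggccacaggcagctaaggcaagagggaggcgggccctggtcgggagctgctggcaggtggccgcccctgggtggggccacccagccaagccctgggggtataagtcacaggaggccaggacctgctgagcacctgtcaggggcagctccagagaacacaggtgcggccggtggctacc
Atp6v0a4 (chr6:38124537-38124836, minus strand): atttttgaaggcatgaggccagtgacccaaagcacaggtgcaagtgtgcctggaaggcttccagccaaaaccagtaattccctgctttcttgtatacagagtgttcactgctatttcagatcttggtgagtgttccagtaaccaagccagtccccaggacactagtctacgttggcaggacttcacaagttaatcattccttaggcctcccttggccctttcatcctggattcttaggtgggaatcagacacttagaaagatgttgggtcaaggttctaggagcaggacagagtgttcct
Rhcg (chr7:79617608-79617907, minus strand): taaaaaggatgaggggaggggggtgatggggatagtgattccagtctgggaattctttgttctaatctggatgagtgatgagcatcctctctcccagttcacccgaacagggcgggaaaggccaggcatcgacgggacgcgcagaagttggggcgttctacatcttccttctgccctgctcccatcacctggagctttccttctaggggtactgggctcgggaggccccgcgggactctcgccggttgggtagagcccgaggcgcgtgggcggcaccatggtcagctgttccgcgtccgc

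Of the 6 windows, 1 held such a word, that of Atp6v1b1 with TGTTTAC at position 153 of the window. Across 32851 promoter windows of the same length the share with either word was 8.48%, and 3.65% held TGTTTAC. Windows without the word say only that these letters are not within them.

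In these kidneys the differences of the acid-base genes pointed both ways. The fitted difference was positive for 5 of them and negative for 5, with a median log2 fold change of -0.27, against 0.02 over all genes tested. The median of the 10 was 0.09 without knockout 2 and -0.68 without knockout 3, so that its sign turned without knockout 2. With an adjusted p under 0.05, 0 of 10 were called (edgeR), where 17.2% of all genes were (10.6% higher and 6.64% lower). An unadjusted p under 0.05 was reached by 2 of 10, Atp6v0a4 and Slc4a1, against 38.6% of all genes. The groups did not overlap for these same 2 genes, both lower in knockouts, where 46% of all genes did not overlap (22.2% of all genes lower and 23.8% higher). With the Wald test of DESeq2, which the study used, Atp6v0a4 and Slc4a1 were called (32.2% of all genes were). Without knockout 1, 3 of 10 were called (34.4% of all genes), Atp6v0a4, Slc4a1 and Rhcg, all lower. With other settings 0 of 10 were called, against 17.8% of all genes with DESeq2 size factors, 18.2% with upper quartile scaling, 24% with library size alone and 12.7% with no filter. The same count of 0 stood against 16.6% with at least 10 counts in every library, 13.4% with limma-voom and 18.1% with the newer quasi-likelihood version. It stood against 0.474% without knockout 2 and 0.013% without knockout 3.

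**Figure D1:**
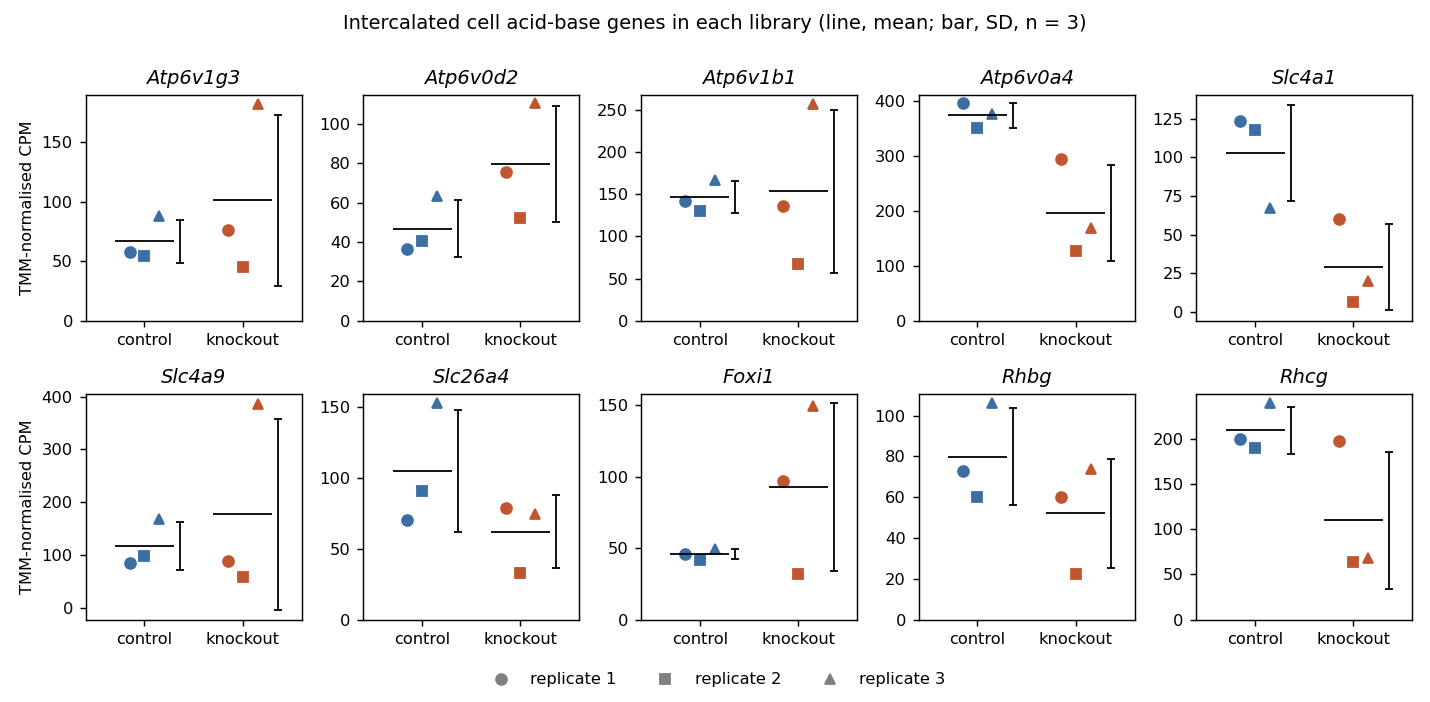
TMM-normalised CPM of the 10 genes in each of 3 control (blue) and 3 knockout (orange) libraries, with the group mean (line) and SD (bar, n = 3). Knockouts lie below every control for Atp6v0a4 and Slc4a1, and knockout 3 lies above every control for Atp6v1g3, Atp6v0d2, Atp6v1b1, Slc4a9 and Foxi1.

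The V-ATPase is built of a V1 sector, which hydrolyses ATP, and a membrane sector, V0, which conducts protons. Atp6v0a4, the a4 subunit of V0, is mutated in human distal renal tubular acidosis. It was at 395, 351 and 375 CPM in controls and 295, 127 and 169 CPM in knockouts, so that all knockouts lay below all controls. Its log2 fold change was -0.93 (SE 0.31, 95% interval -1.67 to -0.18), with an adjusted p of 0.0781 (edgeR). Knockout 1 was the closest to the controls, and without it the log2 fold change was -1.35 (adjusted p 0.00436, edgeR). Leaving out knockout 2 or knockout 3 instead gave -0.69 or -0.83, and leaving out control 2 gave -0.98 (adjusted p 0.172, 0.200 and 0.165, edgeR). An exon of Atp6v0a4 overlaps Tmem213 on the opposite strand and D630045J12Rik on the same strand in the annotation, so its counts are uncertain to that extent.

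Atp6v1b1, the B1 subunit of V1 and likewise mutated in distal renal tubular acidosis, was at 141, 130 and 167 CPM in controls. In knockouts it was at 136, 66.8 and 257 CPM, so knockout 2 lay below and knockout 3 above every control. The log2 fold change was 0.07 (SE 0.44), with a 95% interval of -0.98 to 1.12. The interval includes a change of close to 1 log2 unit in either direction, and the sign turned without knockout 3 (-0.53) and without control 2 (-0.02).

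Atp6v1g3, a G subunit of V1, was at 58.0, 54.1 and 87.9 CPM in controls and 76.5, 45.2 and 182 CPM in knockouts. The groups overlapped, and the log2 fold change of 0.60 (SE 0.49) rested on knockout 3, since it was -0.13 without that library. Atp6v0d2, a d subunit of V0, was at 36.7, 40.3 and 63.4 CPM in controls and 75.6, 52.1 and 111 CPM in knockouts. Knockouts 1 and 3 were above all controls and knockout 2 lay among them. Its log2 fold change was 0.76 (SE 0.32, 95% interval -0.00208 to 1.53) and the adjusted p was 0.130 (edgeR). Without knockout 3 the log2 fold change was 0.45.

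Slc4a1 encodes the anion exchanger AE1, which type A cells use to pass bicarbonate to the blood and which red cells also make. It was the gene with the largest difference among the 10. It was at 124, 117 and 67.1 CPM in controls and 60.1, 6.47 and 20.2 CPM in knockouts, from 102.7 ± 31.0 to 28.9 ± 27.9 CPM (SD, n = 3 each). The highest knockout lay just under the lowest control. The log2 fold change was -1.82 (SE 0.72, 95% interval -3.54 to -0.11), with an adjusted p of 0.113 (edgeR). It was -2.97 without knockout 1 (adjusted p 0.0102, edgeR) and -1.73 without control 2 (adjusted p 0.232, edgeR). Without knockout 2 it was -1.35 and without knockout 3 -1.62 (adjusted p 0.149 and 0.258, edgeR).

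Slc4a9 (AE4) and Slc26a4 (pendrin) are the anion exchangers of type B cells, on the basolateral and the apical side. Slc4a9 was at 84.0, 98.3 and 168 CPM in controls and 88.9, 57.6 and 385 CPM in knockouts. Knockout 3 held 6.69 times as much as knockout 2, where the highest control held 2.00 times the lowest. The log2 fold change was 0.60 (SE 0.70) and turned to -0.67 without knockout 3. Slc26a4 was at 70.3, 90.9 and 153 CPM in controls and 79.1, 32.9 and 74.5 CPM in knockouts. It did not share the high value of Slc4a9 in knockout 3, and its log2 fold change was -0.75 (SE 0.41, 95% interval -1.71 to 0.21). It was -0.38 without control 3 and -0.45 without knockout 2.

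Rhcg and Rhbg pass ammonia across the apical and basolateral membranes of intercalated and neighbouring collecting duct cells. Rhcg was at 199, 189 and 239 CPM in controls and 197, 63.3 and 68.5 CPM in knockouts. Knockout 1 lay within the control range and knockouts 2 and 3 far under it. The log2 fold change was -0.93 (SE 0.44, adjusted p 0.168, edgeR) and became -1.68 without knockout 1 (SE 0.17, adjusted p 0.00254, edgeR). It was -0.65 without knockout 2 and -0.68 without knockout 3 (adjusted p 0.352 and 0.366, edgeR). Rhbg was at 73.0, 60.4 and 106 CPM in controls and 60.1, 22.4 and 73.9 CPM in knockouts. Of the knockouts, 2 of 3 lay below the lowest control, knockout 1 only by a small margin, and the log2 fold change was -0.62 (SE 0.43). It ranged from -0.26 without knockout 2 and -0.36 without control 3 to -0.95 without knockout 3. An exon of Rhbg overlaps 1700021C14Rik on the same strand.

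Foxi1 was even across controls, at 46.2, 42.0 and 49.2 CPM, and uneven across knockouts, at 96.6, 32.0 and 149 CPM. Knockouts 1 and 3 lay above all controls and knockout 2 below them. Its log2 fold change was 1.02 (SE 0.49, 95% interval -0.14 to 2.17) and the adjusted p was 0.169 (edgeR). It was 0.49 without knockout 3 and 1.42 without knockout 2 (adjusted p 0.480 and 0.0540, edgeR). Of 5 known targets of Foxi1 in this cell, Slc4a9 and Atp6v1b1 had differences of the same sign (0.60 and 0.07), whereas Atp6v0a4, Slc4a1 and Slc26a4 had differences of the opposite sign (-0.93, -1.82 and -0.75). Over the 6 libraries, as a description, Pearson's r of log2 CPM with Foxi1 was 0.78 for Atp6v1b1, 0.76 for Slc4a9, 0.24 for Slc26a4, -0.02 for Slc4a1 and -0.13 for Atp6v0a4. It was 0.89 for Atp6v1g3 and 0.85 for Atp6v0d2. These points share libraries and their scaling.

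**Figure D2:**
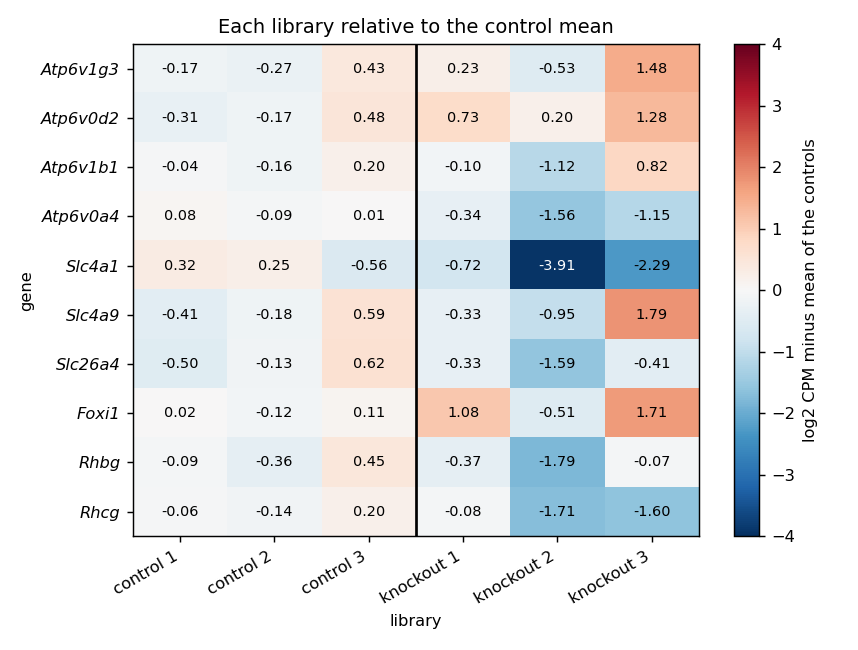
Log2 CPM of each gene (rows) in each library (columns) minus the mean of the 3 controls, with the value printed in each cell. Knockout 2 is negative for 9 of 10 genes, whereas knockout 3 runs from -2.29 for Slc4a1 to 1.79 for Slc4a9.

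The 3 knockouts differed from each other more than the controls did. The SD of log2 CPM was larger in knockouts than in controls for 10 of 10 genes, against 66.4% of all genes tested. The same was seen for 8 of 8 principal cell, 3 of 3 connecting tubule and 3 of 3 thick ascending limb markers, so it was not particular to the acid-base genes. Its median was 0.94 in knockouts and 0.40 in controls for the 10 genes, and 0.30 and 0.21 over all genes. Knockout 2 was the lowest of the 3 knockouts for 10 of 10 genes (31.6% of all genes). This held for 12 of 19 other V-ATPase subunits and 11 of 16 further intercalated cell genes. It also held for 2 of 3 thick ascending limb and 2 of 3 distal convoluted tubule markers, but for 3 of 8 principal cell and 0 of 3 connecting tubule markers. Of all 6 libraries knockout 2 was the lowest for 9 of 10 (20.9% of all genes), and Atp6v0d2 was the exception. The same was so for 11 of the 19 and 7 of the 16. Knockout 3 was the highest of all 6 libraries for 5 of 10 (22.6% of all genes) and below every control for 3 of 10, Atp6v0a4, Slc4a1 and Rhcg. Knockout 1 lay above every control for Atp6v0d2 and Foxi1 and below every control for Atp6v0a4, Slc4a1 and Rhbg. The 10 genes together took 0.0999% to 0.136% of the counts in controls and 0.121%, 0.0566% and 0.169% in knockouts 1 to 3.

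Levels were compared between genes as CPM per kilobase of exon. In controls Rhcg was the highest at 93.7 ± 11.6, followed by Atp6v1b1 at 75.9 ± 9.90 and Atp6v0a4 at 75.2 ± 4.50 CPM per kilobase (SD, n = 3 each). The ranges of Rhcg and Atp6v1b1 overlapped, as did those of Atp6v1b1 and Atp6v0a4, whereas Rhcg (at least 84.8) and Atp6v0a4 (at most 79.5) did not overlap. Slc4a9, Atp6v1g3, Rhbg and Slc26a4 formed the next tier at 36.6, 35.4, 35.2 and 34.1, with overlapping ranges. Slc4a1, Foxi1 and Atp6v0d2 had the lowest means at 20.996, 19.4 and 17.2. The ranges of these groups also overlapped, since Slc26a4 went down to 22.9 and Slc4a1 and Atp6v0d2 reached 25.3 and 23.3. In knockout 3 the order was changed, with Atp6v1b1 at 134, Slc4a9 at 121 and Atp6v1g3 at 96.7 as the highest, and Rhcg at 30.7 CPM per kilobase.

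Ratios of counts within a library do not depend on its scaling, and 6 pairs were compared. The smallest p that an exact permutation test (two-sided) of 3 against 3 libraries can give is 0.1, so none could pass 0.05. The V-ATPase subunits enriched in intercalated cells were set against their widely expressed counterparts. The log2 ratio of Atp6v0a4 to Atp6v0a1 was 2.13, 1.90 and 2.10 in controls and 1.55, 0.64 and 0.87 in knockouts. It was thus lower in all knockouts, by a mean difference of -1.02 (exact p 0.1, adjusted over 6 pairs 0.2). The ratios of Atp6v0d2 to Atp6v0d1 and of Atp6v1g3 to Atp6v1g1 were higher in all knockouts, by 1.11 and 0.97 (exact p 0.1 and adjusted p 0.2 each). In the last of these pairs knockout 2 (-1.72) lay just above the highest control (-1.74), and the difference was 0.39 without knockout 3. The denominators Atp6v0d1 and Atp6v1g1 themselves had log2 fold changes of -0.36 and -0.57.

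The ratio of Atp6v1b1 to Atp6v1b2 was -1.36, -1.81 and -1.69 in controls and -1.33, -1.67 and 0.50 in knockouts, and only knockout 3 stood clearly apart (exact p 0.2). The ratio of Slc26a4 to Slc4a1, a type B over a type A exchanger, was -0.81, -0.37 and 1.19 in controls and 0.40, 2.32 and 1.88 in knockouts. Control 3 overlapped the knockouts, and the mean difference was 1.53 (exact p 0.2, adjusted p 0.24). The ratio of Rhbg to Rhcg overlapped as well, with a difference of 0.39 (exact p 0.9) that turned to -0.18 without knockout 3.

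**Figure D3:**
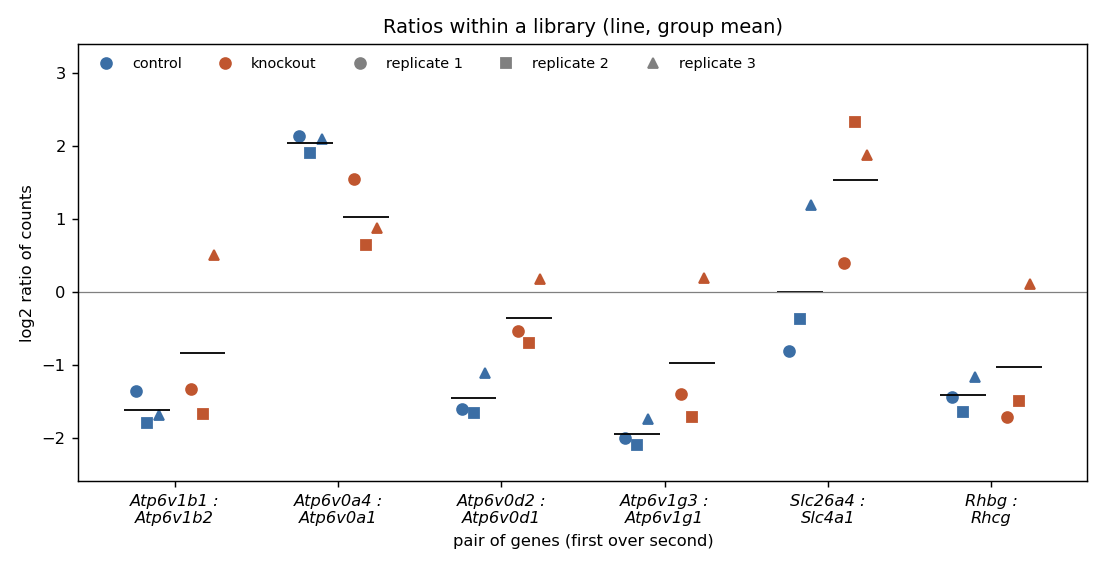
Log2 ratio of the counts of 2 genes in the same library (y axis) for 6 pairs (x axis), controls in blue and knockouts in orange, with the group mean as a line. The groups do not overlap for Atp6v0a4 over Atp6v0a1 (lower in knockouts) and for Atp6v0d2 over Atp6v0d1 and Atp6v1g3 over Atp6v1g1 (higher).

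The other V-ATPase subunits and accessory proteins are used by most cells for acidifying lysosomes and endosomes. Of 21 listed, 19 passed the filter on low counts, and of these 1 was called higher and 1 lower (10.6% and 6.64% of all genes were), with 16 of 19 negative and a median log2 fold change of -0.36. Tcirg1, the a3 subunit of osteoclasts and macrophages, rose from 49.7 ± 9.66 to 131 ± 22.0 CPM (log2 fold change 1.40, SE 0.20, adjusted p 0.0271, edgeR). Atp6v0e2 fell from 55.0 ± 4.75 to 28.5 ± 6.32 CPM (SD, n = 3 each), with a log2 fold change of -0.95 (SE 0.19, adjusted p 0.0316, edgeR). Without control 2, a fit in which 0 genes of any kind were called, the log2 fold changes were 1.28 for Tcirg1 and -1.004 for Atp6v0e2. Atp6v1b2, the widely expressed B subunit, was at 362, 455 and 538 CPM in controls and 341, 213 and 182 CPM in knockouts. Its log2 fold change of -0.88 (SE 0.29) did not pass (adjusted p 0.0728, edgeR), and that of Atp6v0a1 was 0.01 (SE 0.13).

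**Figure D4:**
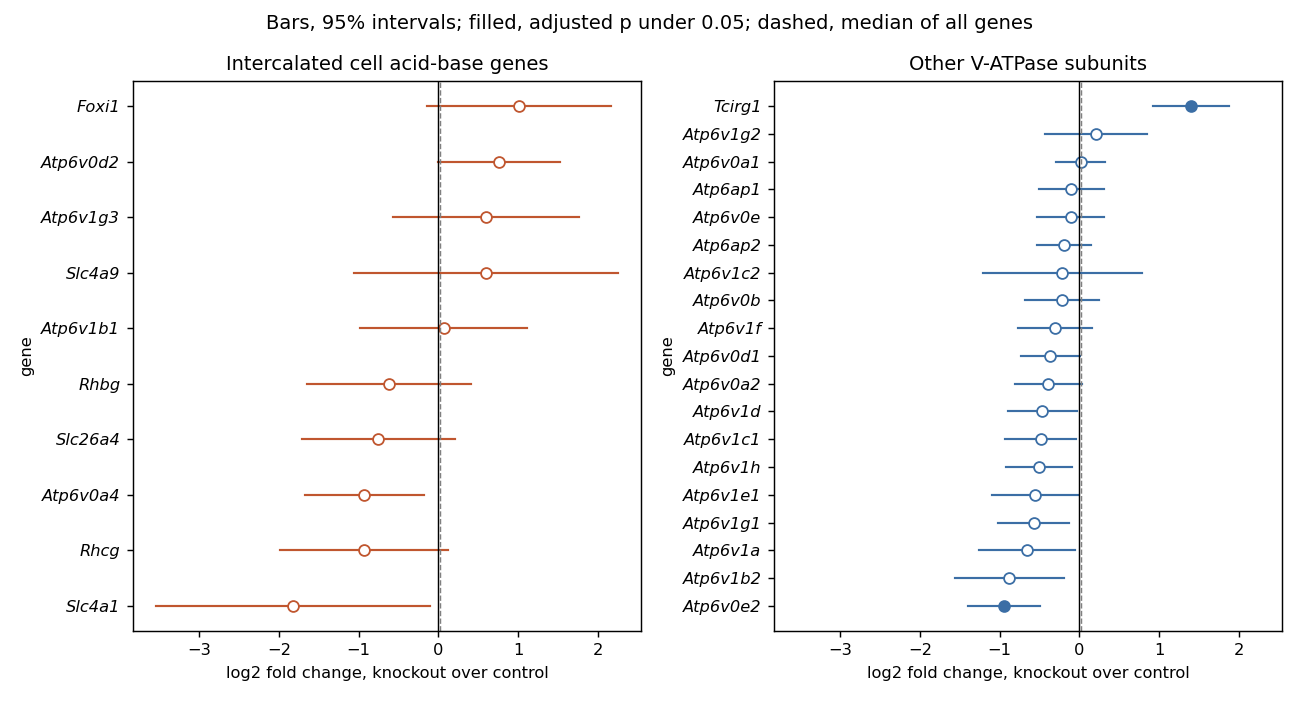
Log2 fold change, knockout over control (x axis), with 95% intervals, of the 10 intercalated cell acid-base genes (left) and 19 other V-ATPase subunits (right). Filled points have an adjusted p under 0.05, which 0 of 10 and 2 of 19 reached, and most intervals are wider on the left.

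Of 16 further genes known from intercalated cells, all passed the filter, with 7 positive and 9 negative values and a median of -0.22 (0.09 without knockout 2). The 1 call, lower, where 6.64% of all genes were called lower, was Insrr, the insulin receptor-related receptor that senses alkali in type B cells. It fell from 52.1, 50.2 and 90.9 CPM in controls to 32.8, 18.6 and 31.6 CPM in knockouts (log2 fold change -1.22, SE 0.31, adjusted p 0.0439, edgeR). Car2, the cytosolic carbonic anhydrase, was lower in all knockouts without being called (-1.08, SE 0.35, adjusted p 0.0720, edgeR). The transcription factor Dmrt2 of type A cells was at 9.75, 6.94 and 7.20 CPM in controls and 16.7, 12.1 and 82.3 CPM in knockouts, again with its highest value in knockout 3. Knockout 2 was the lowest knockout for 11 of these 16 genes (31.6% of all genes).

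Acid-base genes of other segments and the enzymes of ammonia production had a median of -0.79, with 6 of 15 called, all lower, where 6.64% of all genes were called lower. The largest differences among the called were those of Car14 (-2.62, SE 0.55, adjusted p 0.0324, edgeR), Pck1 (-2.20, SE 0.33, adjusted p 0.0277, edgeR) and Car4 (-1.98, SE 0.54, adjusted p 0.0480, edgeR). Car14 and Car4 are membrane carbonic anhydrases, and Pck1 is a gluconeogenic enzyme of proximal tubule linked to ammonia production. Pck1 was at 2394, 2294 and 3072 CPM in controls and 697, 618 and 378 CPM in knockouts. Proximal tubule markers were lower by a median of -2.34 in the same knockouts, with 4 of 4 called (Slc5a2, Lrp2 and Cubn furthest). Their part in the carbonic anhydrase and Pck1 values was not tested. Without control 2 the log2 fold changes were of like size, -2.597 for Car14, -2.29 for Pck1 and -1.78 for Car4.

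Principal cells are the sodium and water transporting neighbours of intercalated cells. Their 8 markers had a median of -0.35 (-0.81 without knockout 1 and -0.07 without knockout 3), with 1 called lower (6.64% of all genes were), Aqp4 (-2.98, SE 0.66, adjusted p 0.0339, edgeR). Their summed level was 1417 to 1715 CPM in controls and 1873, 1044 and 573 CPM in knockouts 1 to 3. The lowest principal cell total was in knockout 3, where 5 of the 10 acid-base genes had their highest values and 3 of 10 (Atp6v0a4, Slc4a1 and Rhcg) lay below every control. Aqp2, a large part of that sum in the other libraries, was at 56.1 CPM there, against 405 to 873 CPM in the other 5 libraries. Aqp3 (39.8 CPM), Aqp4 (7.81 CPM), Scnn1g (43.1 CPM) and Avpr2 (21.7 CPM) were likewise lowest of all 6 libraries in knockout 3. The other 3 markers were not, since Scnn1b (117 CPM) lay within the control range and Hsd11b2 (219 CPM) and Fxyd4 (69.3 CPM) lay above knockout 2 (162 and 43.2 CPM).

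Other cells also make some of these transcripts. Red cells make Slc4a1, and the red cell markers summed to 22.1, 14.4 and 17.8 CPM in controls and 12.3, 11.2 and 18.9 CPM in knockouts 1 to 3. Knockouts 1 and 2 thus lay below every control and knockout 3 among them. Alas2 was the largest part of this sum, at 10.2 to 16.2 CPM in controls and 7.41 to 15.5 CPM in knockouts. Of these 11 markers 3 passed the filter, Klf1 (log2 fold change -1.24, adjusted p 0.112, edgeR), Alas2 (-0.27, adjusted p 0.613, edgeR) and Epb42 (0.67, adjusted p 0.441, edgeR). The 4 globin genes were listed at 0 in all libraries. Over the 6 libraries, as a description, Pearson's r with Slc4a1 was 0.82 for Klf1, 0.32 for Alas2 and -0.58 for Epb42. The part of red cells in the Slc4a1 values was not tested further. Macrophages and osteoclasts make Atp6v0d2, and 7 of 10 tested markers of these cells were called higher (10.6% of all genes were), with Trem2, Gpnmb and Lyz2 furthest. They summed to 206 to 223 CPM in controls and 405, 1480 and 549 CPM in knockouts 1 to 3. Among the knockouts Atp6v0d2 was lowest in knockout 2, in which these markers were highest. Its Pearson's r with the tested markers over the 6 libraries, as a description, ran from -0.51 (Csf1r) to 0.63 (Cd68). It was 0.58 for Trem2, 0.59 for Gpnmb and 0.55 for Lyz2. The part of macrophages in the Atp6v0d2 and Tcirg1 values was not tested further. Atp6v0a4 followed the proximal tubule markers over the 6 libraries, as a description. Its Pearson's r was 0.92 with Lrp2, 0.91 with Cubn, 0.95 with Slc34a1 and 0.88 with Slc5a2. Whether cells other than intercalated cells had a part in the Atp6v0a4 values was not tested.

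**Figure D5:**
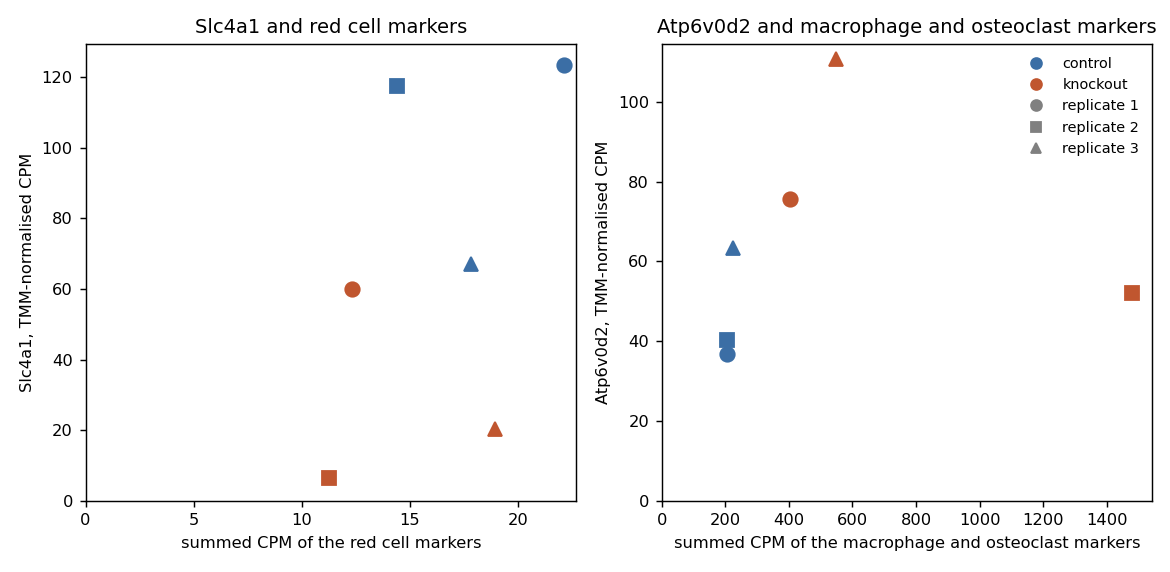
CPM of Slc4a1 against the summed CPM of 11 red cell markers (left) and of Atp6v0d2 against the summed CPM of 11 macrophage and osteoclast markers (right), 1 point per library. Slc4a1 is lower in all knockouts. The red cell totals of knockouts 1 (12.3) and 2 (11.2) lie below every control, and that of knockout 3 (18.9) lies among them. All knockout macrophage totals lie above those of controls, and knockout 2 has the highest (1480) with 52.1 CPM of Atp6v0d2.

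The tested genes with the pattern most like the mean of the 10 (Pearson's r of log2 CPM with the mean standardised value, over 6 libraries, as a description) were Myo19 (0.997), Pomgnt2 (0.990), Pick1 (0.989), Mon1a (0.988) and Eif1 (0.986). Myo19, a myosin of mitochondria, was at 58.9, 57.4 and 67.7 CPM in controls and 62.3, 36.4 and 69.7 CPM in knockouts. Each of these 5 was lowest in knockout 2, which follows from their selection by likeness to that mean. None of the 5 was called (adjusted p from 0.675 to 0.835, edgeR). The mean was not a pattern that all 10 shared, since r between Foxi1 and Atp6v0a4 was -0.13.

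Positions are those of GENCODE M1 on NCBIM37 (mm9), the build to which the reads were aligned. Atp6v1g3 lies on chromosome 1 (140170315 to 140186037), Atp6v0d2 on chromosome 4 (19803988 to 19849752), and Atp6v0a4 and Atp6v1b1 on chromosome 6 (37998483 to 38074586 and 83693011 to 83708803). Slc4a1 and Foxi1 lie on chromosome 11 (102210138 to 102227517 and 34104338 to 34108089), Slc26a4 on chromosome 12 (32204692 to 32244834), Rhbg on chromosome 3 (88046796 to 88091132) and Rhcg on chromosome 7 (86738249 to 86762543). Every 100-base word of the longest transcript of each of the 10 genes, Slc4a9 included, was found in no other gene's longest transcript.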

How the data were processed

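Poly-A RNA of 6 whole kidneys was sequenced as single-end reads. Per the labels and the study's methods, the authors called bases with CASAVA 1.8.2, trimmed with Trimmomatic, aligned to mm9 with TopHat2 2.0.11 and deposited raw counts of uniquely mapped reads per gene from HTSeq, in 1 table per group. The gene annotation and strand setting are not given in the sources used here, so overlapping genes are uncertain. Groups and replicate numbers came from sample titles. The study describes the replicates as separate mice and the controls as wild type littermates.

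Counts were analysed in R 4.3.3 with edgeR 4.0.16 (filterByExpr, minimum count 10 and total 15), TMM scaling and its quasi-likelihood test (glmQLFit and glmQLFTest, package default; no covariate). Benjamini-Hochberg adjustment was over the 15171 genes tested. The SE is the log2 fold change over the square root of F. Log2 values per library used a prior count of 2. Replicates differed by 45.1 to 108 chi-square units per degree of freedom, so each counted once. The test was first tested on simulated data. Named genes were the 10 members, their partners, called genes of the lists (the 3 largest where more) and the 5 most alike in pattern. Others (Car2, Dmrt2, Klf1, Alas2, Epb42, the principal cell markers other than Aqp4, and those of the closing section) were chosen after their values were seen. Members and lists were chosen with earlier results of these data known. Exon lengths are from GENCODE M1. Alternatives were other scalings, filters, limma-voom 3.58.1, DESeq2 1.42.0, the newer quasi-likelihood version, a replicate block, a covariate of Xist over Y-linked genes, and leaving out each library.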

Additional observations from a re-analysis of the deposited data

How the results depend on the processing

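Over 17 alternatives the 10 genes gave 170 values, of which 159 kept their direction and side of the threshold, 5 passed the threshold with the same direction, and 6 turned. With the replicate block, the Xist-to-Y covariate or any 1 control left out, 0 genes of any kind were called. No value could pass the threshold there, and leaving out the 10 highest genes returned the main values, so the 159 overstates stability. The 6 that turned were Atp6v1b1 with limma-voom (-0.0890), with the replicate block (-0.13), without control 2 (-0.02) and without knockout 3 (-0.53), and Atp6v1g3 (-0.13) and Slc4a9 (-0.67) without knockout 3. Of 42 pair values 41 kept their direction, and Rhbg to Rhcg turned without knockout 3 (-0.18). With 1 library left out, the values of these ran up to 0.43 (Atp6v1b1), 0.95 (Atp6v1g3), 1.02 (Slc4a9) and 0.73 (Rhbg to Rhcg). The number of the 10 genes called was 0 as reported, 2 by DESeq2's Wald test, and from 0 to 3 across fits that left out 1 library (3 without knockout 1). Calls over all genes were 2612, with 4882 by DESeq2's Wald test, 0 with the replicate block (5432 genes at an unadjusted p under 0.05), 0 with the Xist-to-Y covariate (4221 such genes), and from 0 to 5332 across fits that left out 1 library. They were 0 without control 1, 2 or 3 (4808, 4270 and 4823 such genes), 73 without knockout 2 and 2 without knockout 3. The cause was not tested. Correlations of deviations between libraries of the same number were -0.13, 0.01 and 0.21, too few values to settle whether the numbers paired them. The SE of each of the 10 genes was smaller with the replicate block, such as 0.28 against 0.49 for Atp6v1g3. Of the 10 genes 0 were called with the replicate block and 5 had an unadjusted p under 0.05. Library size alone moved the median over all genes from 0.02 to 0.29 and that of the 10 from -0.27 to -0.00627, and leaving out the 10 highest genes was absorbed by TMM. The smallest adjusted p over all genes was 0.0271. Slc4a1 in knockout 2 rested on 129 counts, the fewest behind any value of the 10 genes.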

Other observations

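Some distal segment genes were far lower in knockout 3 than in the other knockouts, and others were not. Calb1, calbindin of the connecting tubule, was at 986, 672 and 59.7 CPM in knockouts 1 to 3 and 747, 837 and 1256 CPM in controls. Slc12a3, the sodium-chloride cotransporter of the distal convoluted tubule, was at 1250.4, 552 and 61.7 CPM in knockouts 1 to 3 and 1130.0, 1115 and 1686 CPM in controls. The other markers of that segment, Pvalb and Trpm6, were lowest in knockout 2 (0.602 and 22.5 CPM, against 2.37 and 28.5 CPM in knockout 3). Neither Calb1 nor Slc12a3 passed edgeR's test (adjusted p 0.548 and 0.397). Pvalb, at 30.9, 33.5 and 59.6 CPM in controls, was called lower (log2 fold change -3.25, SE 0.87, adjusted p 0.0471, edgeR). Of the 16 further intercalated cell genes, 6 had their highest value of all 6 libraries in knockout 3 (22.6% of all genes did). Among them were Hepacam2 (107 CPM), Kit (98.5 CPM) and Adgrf5 (540.3 CPM), whereas Car2 (166 CPM) was lowest of all 6 libraries there, and Insrr (31.6 CPM) and Aqp6 (69.3 CPM) lay below every control. Adgrf5 is also an endothelial gene, and Kit a mast cell gene. Atp4a, a proton pump gene, was at 68.0, 45.0 and 92.1 CPM in controls and 70.2, 30.6 and 9.88 CPM in knockouts, so that its value in knockout 3 was the lowest, and its difference did not pass (-0.89, SE 0.64, adjusted p 0.337, edgeR).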
